A study of Homo sapiens with 6 samples.

Results

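This account concerns the enzymes that human cells use to oxidise, reduce, conjugate and clear reactive compounds, in SKOV3 cells with and without silencing of KLF5. SKOV3 is a widely used line of human ovarian cancer cells, and KLF5 is a zinc-finger transcription factor of the Krüppel-like family. The genes were chosen by symbol and not by their values. Every protein-coding gene in the table was taken from the aldehyde dehydrogenase (ALDH), aldo-keto reductase (AKR), UDP-glycosyltransferase (UGT) and cytochrome P450 (CYP) families. So were the glutathione S-transferase (GST) genes, without the membrane-bound MGST genes. Added to these were 8 redox genes named singly (NQO1, GCLC, GCLM, TXNRD1, SRXN1, HMOX1, GPX2 and GPX4). The 7 genes ALDH1A1, ALDH1A2, ALDH1A3, ALDH1L2, CYP26A1, CYP26B1 and CYP51A1 were left out. This gave 91 of the 29185 genes in the table: 14 ALDH, 11 AKR, 11 GST, 9 UGT and 38 CYP genes and the 8 redox genes.

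Poly(A) RNA was sequenced from 3 libraries of SKOV3 cells that stably carried a short hairpin RNA against KLF5 (sh-KLF5, genotype KLF5 knockdown in the labels) and from 3 libraries of control SKOV3 cells (sh-NC, genotype WT in the labels). Both groups were otherwise untreated as far as the labels say. The hairpin was delivered in the pLKO.1-EGFP-Puro vector, so the knockdown was carried by infected cells kept under selection. The comparison asks which transcripts differ once KLF5 is silenced. How many hairpins or clones the sequenced line holds is not given in the sources used here, and nothing says that the replicates were separate cultures, so the p-values measure only the spread between these libraries, which may be technical.

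Cells handle foreign and self-made reactive molecules in stages. CYP enzymes insert oxygen into a substrate, ALDH enzymes oxidise aldehydes to acids, and AKR enzymes reduce carbonyl groups with NADPH. GST and UGT enzymes then attach glutathione or a sugar acid, which makes the product easier to export. Glutathione itself is made through glutamate-cysteine ligase, whose catalytic and modifier subunits are GCLC and GCLM. Many of these genes are known targets of NRF2, the oxidant-responsive factor encoded by NFE2L2 and held in check by KEAP1, and others answer to the aryl hydrocarbon receptor (AHR). In tumours, high ALDH, AKR1C and GSTP1 levels are commonly discussed in the context of stem-like cells and drug resistance.

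Library depth ranged from 15852319 to 17543896 reads. KLF5 had 4371, 4425 and 4494 normalized counts in the sh-NC libraries, against 1745, 1439.9 and 1436 in the sh-KLF5 libraries, which is 34.8% of the control level (log2 fold change -1.53 ± 0.12 SE, adjusted p = 2.47e-07, limma). A normalized count is the number of reads on a gene divided by a size factor of its library, and the adjusted p is Benjamini-Hochberg corrected over the 15803 genes tested. Of 8 ovarian carcinoma markers 7 were in the table, and all 7 had reads in every library and were tested. Of these, 4 (KRT7, KRT8, KRT18 and MUC16) were lower in sh-KLF5. EPCAM, ERBB2 and PAX8 did not pass (log2 fold changes -0.03, -0.33 and -0.25, adjusted p-values 0.954, 0.124 and 0.407, limma). The summed reads of the list ran from 54602 to 65414 in sh-NC and from 27844 to 38738 in sh-KLF5. Of 3 immune markers reported here, PTPRC and CD68 had at most 2 reads in any library, while CD14 had 151 to 391 and did not pass (log2 fold change 0.66, adjusted p = 0.0725, limma). Of 3 endothelial markers, PECAM1 had 31 to 75 reads (log2 fold change -0.61, adjusted p = 0.172, limma) and VWF and CDH5 at most 10, and the 2 hepatocyte markers in the table had at most 4. The part of this marker difference in the results that follow was not tested, and in bulk RNA fewer cells of one kind and less RNA per cell cannot be told apart.

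A few detoxification genes differed by large factors between the groups, and most of those tested did not pass. Of the 91 genes, 56 had enough reads to be tested, 8 were higher and 3 were lower in sh-KLF5 at an adjusted p under 0.05 (limma), and 45 did not pass. The background in all tested genes was 6.04% higher and 6.85% lower, against 19.6% of the 56 genes in both directions. The fold limit of the study was then added, a log2 fold change beyond 1 either way. With it 2 genes were called higher (AKR1C1 and CYP24A1) and 2 were called lower (ALDH7A1 and UGT3A2). Both directions together made up 7.14% of the 56 genes, against 5.28% of all tested genes (1.9% higher and 3.37% lower). ALDH7A1 and UGT3A2 had enough reads to be tested only through sh-NC, and CYP24A1 only through sh-KLF5. A gene that enters the test in this way is already uneven between the groups, so these calls are not separate support for a difference. The median log2 fold change of the 56 genes was 0.08, against -0.0023 over all tested genes. On the log2 scale 37 of them (66.1%) lay within 0.5 of 0, against 78.9% of all tested genes, and the median absolute log2 fold change was 0.32, against 0.22. In 11 genes every sh-KLF5 library was above every sh-NC library and in 11 every one was below, while over all tested genes this held for 15.4% and 15.9%.

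**Figure D1:**
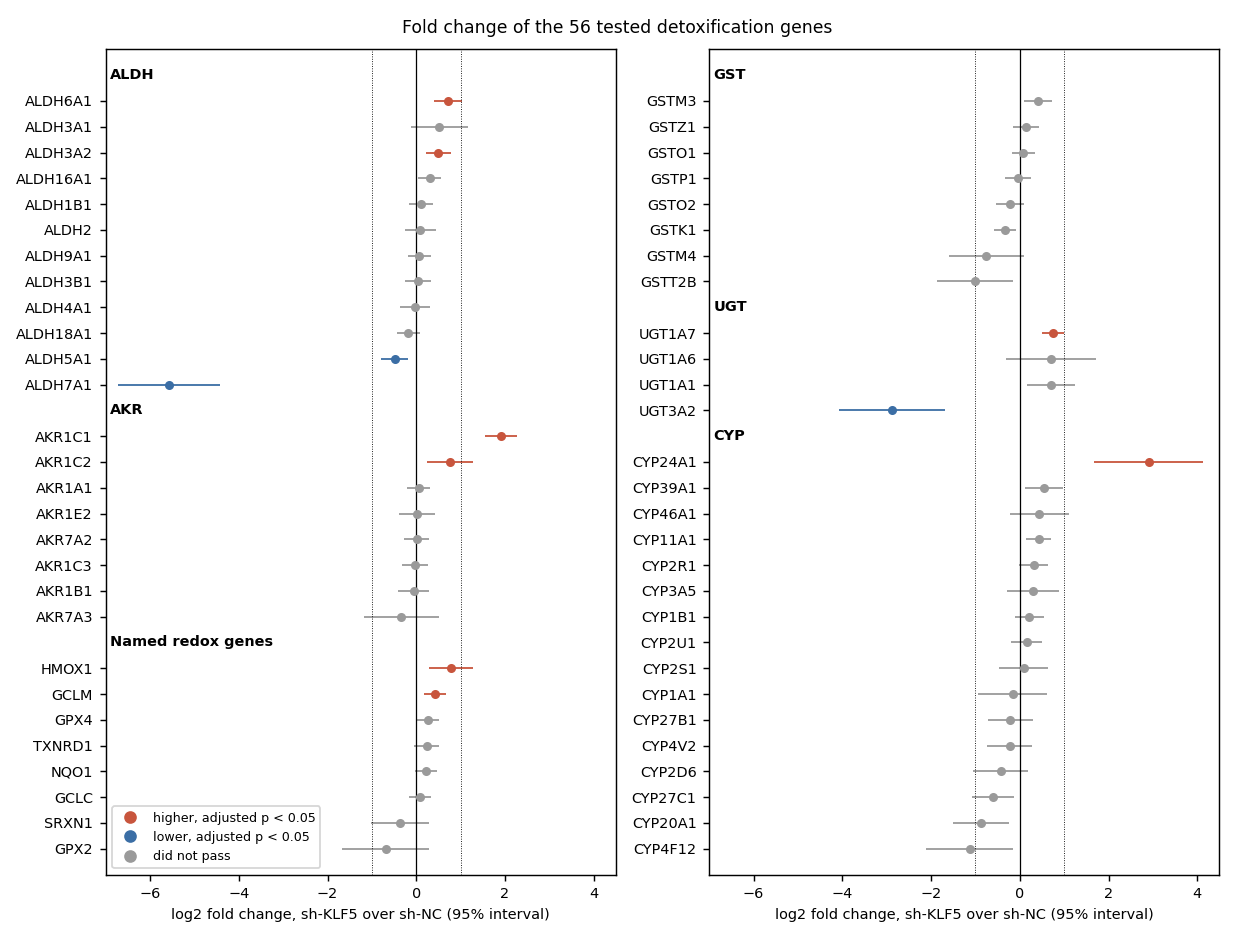
Log2 fold change of each of the 56 tested genes, sh-KLF5 over sh-NC, with its 95% interval from limma as a horizontal line, grouped by family and ordered by value; dotted lines mark a log2 fold change of 1 and -1. Only ALDH7A1, UGT3A2, CYP24A1 and AKR1C1 pass the test and lie beyond the dotted lines, and most other genes sit close to 0.

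Of the 35 genes with too few reads, 29 stayed at 10 reads or below throughout, and 22 were CYP genes. These included CYP2E1, CYP7A1, CYP17A1 and CYP27A1, which are known for ethanol, bile acid and steroid metabolism and never exceeded 3 reads in a library. The others with more reads were ALDH1L1, AKR1B10, CYP19A1, GSTA4, GSTM1 and GSTM2. None of the 35 was tested at this filter, so none is among the 11 genes that passed.

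The AKR, GST, UGT and CYP families were each dominated by a single gene, and of these leading genes only UGT1A7 passed the test. Levels between genes are given here as RPKM, the reads on a gene scaled to exon length and library depth. AKR1B1, the aldose reductase that turns glucose into sorbitol, made up 85.6% of the summed AKR level in sh-NC, against 84.6% in sh-KLF5. GSTP1, the pi-class GST common in carcinoma cells, made up 73.2% of the summed GST level in both groups, and CYP1B1, an oestrogen- and hydrocarbon-oxidising P450, 76.8% and 77.5% of the CYP level. The summed level of the family was 12.6 ± 0.83 RPKM in sh-NC, against 20.04 ± 1.84 in sh-KLF5 for UGT, 115 ± 3.77 and 121 ± 5.42 for ALDH, and 222 ± 22.0 and 218 ± 18.7 for GST (SD, n = 3). The AKR sum was 419 ± 70.04 RPKM in sh-NC, against 414 ± 86.0 in sh-KLF5, that of CYP 113 ± 7.42 and 133 ± 30.5, and that of the redox genes 437 ± 35.4 and 536 ± 5.05 (SD, n = 3). The ranges of the 2 groups did not overlap for UGT and for the redox genes, and they overlapped for ALDH, AKR, GST and CYP.

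**Figure D2:**
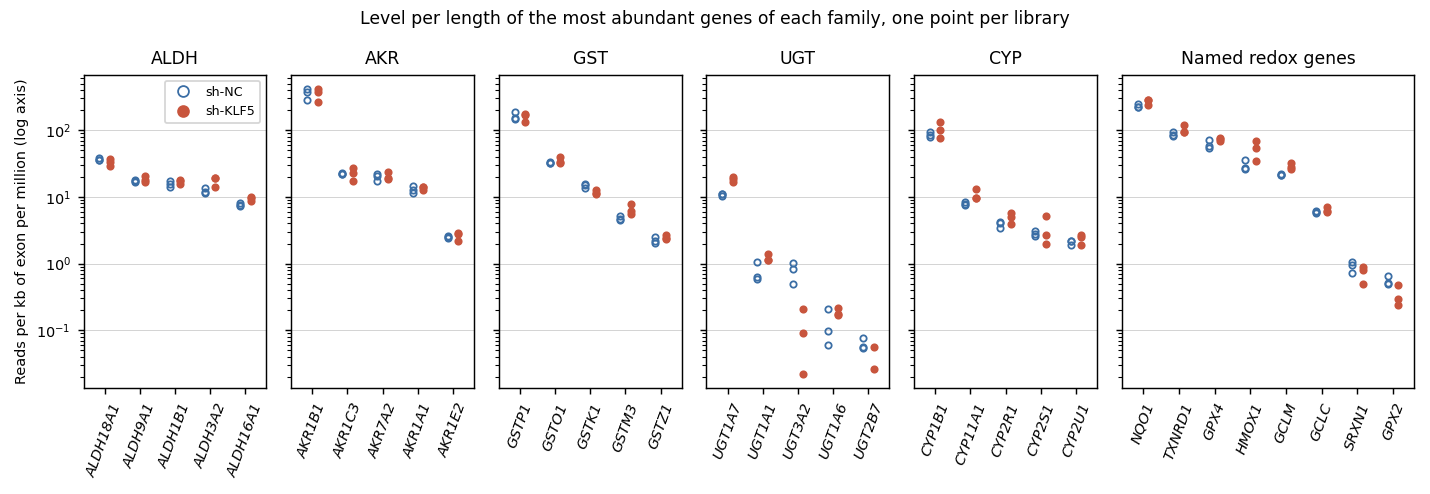
RPKM on a log axis of the 5 most abundant genes of each family and of the 8 redox genes, one point per library, with open points for sh-NC and filled points for sh-KLF5. AKR1B1, GSTP1, CYP1B1 and NQO1 stand above the rest of their groups with overlapping or nearly overlapping points, and UGT1A7 is higher in all sh-KLF5 libraries; UGT2B7 had 0 reads in one sh-KLF5 library, which a log axis cannot show.

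Among the ALDH genes, 2 were lower and 2 were higher of 12 tested (33.3% passing, against 12.9% of all tested genes). This share counts a gene that entered the test only through sh-NC, ALDH7A1. ALDH7A1, the antiquitin enzyme that oxidises the lysine breakdown product alpha-aminoadipic semialdehyde and is expressed across tissues, had 89, 67 and 53 reads across the sh-NC libraries, against 0, 0 and 2 reads in the sh-KLF5 libraries. The groups were far apart, with all but 2 of its reads in the controls. Its level was 68.4 ± 13.5 normalized counts in sh-NC, against 0.668 ± 1.16 in sh-KLF5 (SD, n = 3). The ratio of the summed reads was 103-fold lower in sh-KLF5, with a 95% counting interval from 28.2-fold to 858-fold, and the fitted log2 fold change was -5.57 ± 0.54 SE (adjusted p = 3.28e-06, limma). The fitted value depends on the count added before taking logs and ranged from -7.94 to -3.70 over the other settings. The call was lost in none of those that tested the gene. At the filter used here ALDH7A1 entered the test only through its sh-NC reads, so keeping the call is not separate support. Even in sh-NC the gene was weakly expressed, at 0.231 RPKM.

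The annotation places ALDH7A1 on the minus strand at chr5:126531200-126595418 (GRCh38), and no exonic base of it overlaps another gene. Its promoter is shown because it belongs to the gene with the largest fitted change among the 56 and holds matches to a box that KLF proteins are known to bind. The window runs from 250 bases before to 50 after the start in RefSeq (GRCh38.p14, chr5:126595170-126595469, minus strand), and capitals mark the letters CCNCNCCC read on the opposite strand. There are 4 matches, 3 of which overlap in the longer run.
ALDH7A1 promoter: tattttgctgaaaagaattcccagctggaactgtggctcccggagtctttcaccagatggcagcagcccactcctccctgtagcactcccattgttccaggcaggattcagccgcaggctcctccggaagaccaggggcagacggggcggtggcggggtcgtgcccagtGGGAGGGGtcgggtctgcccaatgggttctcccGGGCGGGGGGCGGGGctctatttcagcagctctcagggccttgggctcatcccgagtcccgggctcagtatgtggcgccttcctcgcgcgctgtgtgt
Such a match is common, being present in 56.2% of the 35116 promoter windows of the same length and in 58.9% of gene symbols, and it is a description of the sequence and not a binding site.

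ALDH5A1, the succinate semialdehyde dehydrogenase of the GABA pathway, had 655, 828 and 747 normalized counts in sh-NC, against 602, 549 and 443 in sh-KLF5. All sh-KLF5 libraries were below all sh-NC libraries, at 71.5% of the control mean (log2 fold change -0.49 ± 0.14 SE, adjusted p = 0.0313, limma). The adjusted p rose to 0.186 without sh-NC replicate 2, 0.111 without sh-NC replicate 3, 0.0649 without sh-KLF5 replicate 2 and 0.118 without sh-KLF5 replicate 3.

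ALDH6A1, the methylmalonate semialdehyde dehydrogenase of valine breakdown, had 406, 465 and 452 normalized counts in sh-NC, against 851, 794 and 563 in sh-KLF5. The groups did not overlap and the sh-KLF5 mean was 167% of the control mean (log2 fold change 0.72 ± 0.15 SE, adjusted p = 0.00418, limma). The call was kept without any single library, while 10% of its exonic bases overlap BBOF1 on the opposite strand and whether reads were counted by strand is not given in the sources used here. ALDH3A2, the fatty aldehyde dehydrogenase of the endoplasmic reticulum, had 1412, 1213 and 1286 normalized counts in sh-NC, against 2049.7, 1969 and 1546 in sh-KLF5. Here too the groups did not overlap (142% of the control mean, log2 fold change 0.50 ± 0.13 SE, adjusted p = 0.0157, limma). The adjusted p was 0.109 without sh-NC replicate 2, 0.0728 without sh-NC replicate 3 and 0.0691 without sh-KLF5 replicate 2.

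Of the 5 most abundant ALDH genes, ALDH3A2 passed and the other 4 did not. ALDH18A1, which makes the proline precursor from glutamate, stood at 36.9 RPKM in sh-NC, against 32.9 in sh-KLF5 (log2 fold change -0.18, 95% interval -0.44 to 0.08, adjusted p = 0.384, limma). ALDH9A1 and ALDH1B1, which act on aminoaldehydes and on mitochondrial aldehydes, had log2 fold changes of 0.07 and 0.10. ALDH16A1, a family member that lacks known catalytic activity in mammals, had 552, 572 and 638 normalized counts in sh-NC, against 740.0, 744 and 687 in sh-KLF5. Its groups did not overlap, but it missed the threshold (log2 fold change 0.30, adjusted p = 0.116, limma). ALDH2, the main mitochondrial acetaldehyde dehydrogenase, had a log2 fold change of 0.09 (adjusted p = 0.771, limma), and those of ALDH3A1, ALDH3B1 and ALDH4A1 were 0.52, 0.03 and -0.03, none of which passed. ALDH4A1 shares 41.1% of its exonic bases with AL080251.1 on the same strand.

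In the AKR family, 2 of 8 tested genes were higher and none was lower (25% passing, against 12.9% of all tested genes). Both belong to the AKR1C cluster of hydroxysteroid dehydrogenases on chromosome 10. AKR1C1, which inactivates progesterone by reducing its keto group, had 94.0, 103 and 104 normalized counts in sh-NC, against 456, 388 and 308 in sh-KLF5. Every sh-KLF5 library was well above every sh-NC library, and the mean was 382% of control. The log2 fold change was 1.91 ± 0.17 SE (95% interval 1.54 to 2.27, adjusted p = 1.5e-06, limma), and it passed under all 17 alternative settings. AKR1C2, which reduces dihydrotestosterone, had 69.8, 77.8 and 104 normalized counts in sh-NC, against 159, 182 and 97.3 in sh-KLF5. Its groups overlapped, since sh-KLF5 replicate 3 lay below sh-NC replicate 3. The log2 fold change was 0.77 ± 0.24 SE with an adjusted p of 0.0488 (limma), and the call was lost under 10 of the 17 settings. The adjusted p was 0.176, 0.159 and 0.0558 without sh-NC replicate 1, 2 and 3, and 0.0756 and 0.205 without sh-KLF5 replicate 1 and 2, but 0.00614 without sh-KLF5 replicate 3.

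AKR1C1 lies at chr10:4963253-4983283 on the plus strand and AKR1C2 at chr10:4987400-5018031 on the minus strand (GRCh38). Their coding sequences of 969 bases each are 98% identical, and they are 91.8% and 91.2% identical to that of AKR1C3, so reads from a shared stretch may have been assigned to the wrong gene or left uncounted, and the split between AKR1C1 and AKR1C2 is uncertain. Their promoters are shown as a pair because 93.5% of aligned bases agree as well (RefSeq, GRCh38.p14, AKR1C1 at chr10:4963165-4963464 on the plus strand and AKR1C2 at chr10:5003808-5004107 on the minus strand).
AKR1C1 promoter: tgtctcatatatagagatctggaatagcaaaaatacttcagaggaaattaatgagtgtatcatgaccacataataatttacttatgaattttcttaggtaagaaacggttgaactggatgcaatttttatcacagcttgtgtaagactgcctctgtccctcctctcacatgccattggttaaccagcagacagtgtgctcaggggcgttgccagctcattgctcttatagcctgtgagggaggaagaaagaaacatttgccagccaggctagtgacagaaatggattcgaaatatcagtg
AKR1C2 promoter: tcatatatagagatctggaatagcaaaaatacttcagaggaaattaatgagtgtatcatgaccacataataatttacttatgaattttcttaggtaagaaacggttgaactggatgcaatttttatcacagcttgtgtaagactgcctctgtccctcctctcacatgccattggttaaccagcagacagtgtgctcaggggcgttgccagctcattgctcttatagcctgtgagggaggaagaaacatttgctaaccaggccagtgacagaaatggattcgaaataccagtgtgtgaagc
The letters searched were CCNCNCCC, GCGTG (the core bound by AHR with its partner) and TGACNNNGC (the core of the antioxidant response element bound by NRF2), on both strands, and none is in either window.

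The other tested AKR genes had log2 fold changes near 0. AKR1C3, which makes testosterone from androstenedione, had 1625, 1641 and 1723 normalized counts in sh-NC, against 1985, 1643 and 1339.5 in sh-KLF5 (log2 fold change -0.02, adjusted p = 0.94, limma). AKR1B1 had 17237, 22136 and 25779.7 normalized counts in sh-NC, against 24698, 21972 and 16159.8 in sh-KLF5. Its groups overlapped, and the 95% interval of its log2 fold change ran from -0.41 to 0.29. AKR7A2, AKR1A1 and AKR1E2 had log2 fold changes of 0.01, 0.05 and 0.02. AKR7A3, a minor aflatoxin aldehyde reductase, had a log2 fold change of -0.33 (adjusted p = 0.648, limma).

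**Figure D3:**
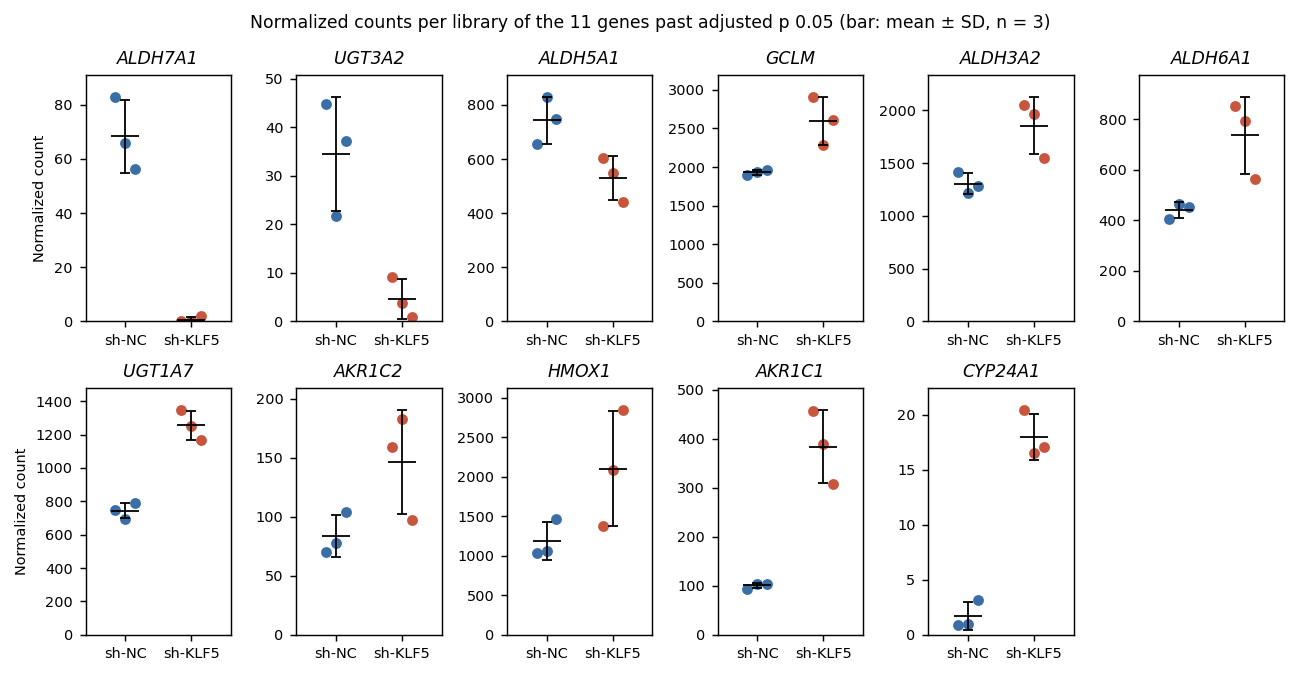
Normalized counts of the 11 genes with an adjusted p under 0.05, one point per library and the mean ± SD of 3 libraries in black, ordered by log2 fold change, each panel with its own axis from 0. ALDH7A1 and UGT3A2 are near 0 in sh-KLF5, CYP24A1 is near 0 in sh-NC, and only AKR1C2 and HMOX1 have overlapping groups.

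Of 16 tested CYP genes 1 passed (6.25%, against 12.9% of all tested genes). It was a gene of vitamin D and not of drug metabolism. CYP24A1, the mitochondrial hydroxylase that inactivates vitamin D, had 1, 1 and 3 reads across the sh-NC libraries, against 20, 17 and 17 in the sh-KLF5 libraries. The groups did not overlap, with 1.70 ± 1.28 normalized counts in sh-NC, against 18.0 ± 2.10 in sh-KLF5 (SD, n = 3). The ratio of summed reads was 10.9-fold higher, with a 95% counting interval from 4.41-fold to 35.0-fold, and the fitted log2 fold change was 2.91 ± 0.58 SE (adjusted p = 0.00249, limma). The fitted value ran from 1.79 to 3.54 over the settings. Under limma's test for a log2 fold change beyond 1 the call was lost (adjusted p = 0.108). At 0.276 RPKM in sh-KLF5 the gene remained weakly expressed. It lies at chr20:54153449-54173973 on the minus strand (GRCh38). Its partner in vitamin D metabolism CYP27B1, which makes the active hormone, had a log2 fold change of -0.21 (adjusted p = 0.619, limma), and CYP2R1, which performs the preceding step, 0.31 (adjusted p = 0.218, limma).

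CYP1B1 had the highest level of the CYP genes, at 86.5 ± 7.17 RPKM in sh-NC, against 103 ± 28.3 in sh-KLF5 (SD, n = 3). It had normalized counts of 9259, 8343 and 8107 in sh-NC, against 13095, 9587 and 7863 in sh-KLF5, so the groups overlapped (log2 fold change 0.22, 95% interval -0.11 to 0.55, adjusted p = 0.403, limma). Genes on the opposite strand overlap 12.9% of the CYP1B1 exonic bases. CYP11A1, which cleaves the cholesterol side chain, had 436, 475 and 461 normalized counts in sh-NC, against 553, 738 and 562 in sh-KLF5. The groups did not overlap, but it missed the threshold (log2 fold change 0.42, adjusted p = 0.055, limma), passed with edgeR and DESeq2 at adjusted p-values of 0.0457 and 0.04 and without sh-KLF5 replicate 1 at 0.00826, and shares 29% of its exonic bases with genes on the opposite strand. CYP1A1, a classic AHR target, had 26.1, 30.5 and 20.2 normalized counts in sh-NC, against 30.6, 26.2 and 14.0 in sh-KLF5. Its groups overlapped (log2 fold change -0.16, adjusted p = 0.826, limma). CYP4F12, CYP20A1 and CYP27C1 had log2 fold changes of -1.13, -0.87 and -0.59, and CYP39A1, a hydroxylase of oxidised cholesterol, 0.55. None of these passed, with adjusted p-values of 0.13, 0.0688, 0.0961 and 0.0944 in that order (limma). Without sh-KLF5 replicate 1 the adjusted p of CYP27C1 was 0.0315. CYP2S1 and CYP2U1 had log2 fold changes of 0.08 and 0.15, and CYP3A5 0.30, also without passing.

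Of the UGT genes, 4 of 9 could be tested, and 1 was higher and 1 lower (50% of the 4, against 12.9% of all tested genes). UGT3A2, the lower gene, entered the test only through sh-NC, and UGT1A6 only through sh-KLF5. The share of these 4 genes is therefore not separate support for a difference. UGT1A7, which attaches glucuronic acid to hydrocarbon metabolites, had 750.4, 695 and 787 normalized counts in sh-NC, against 1345, 1249.8 and 1169 in sh-KLF5. The groups did not overlap, and the sh-KLF5 mean was 169% of control (log2 fold change 0.75 ± 0.12 SE, adjusted p = 0.000306, limma). The call was kept without any single library. UGT1A7 lies at chr2:233681938-233773299 on the plus strand (GRCh38), in a locus where each UGT1A gene has its own first exon and all share the later exons. Of its 4167 exonic bases, 40.6% are shared with 8 other UGT1A genes, so reads on those bases do not name one gene. UGT1A1, the bilirubin-conjugating enzyme, had 78.2, 46.3 and 43.5 normalized counts in sh-NC, against 81.5, 101 and 84.2 in sh-KLF5, and UGT1A6, which conjugates phenols, 8.38, 17.7 and 5.31 and 18.3, 14.6 and 15.04. UGT1A1 did not overlap between groups and UGT1A6 did, and neither passed (log2 fold changes 0.70 and 0.71, adjusted p-values 0.0849 and 0.379, limma). For UGT1A1 the adjusted p was 0.0304 without sh-NC replicate 1.

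The stretch of the UGT1A7 promoter around its GCGTG core is shown because UGT1A genes are known AHR targets, and the core, in capitals, is read on the opposite strand. The window is chr2:233681815-233681865 on the plus strand (RefSeq, GRCh38.p14), and the core starts 63 bases before the start.
UGT1A7 window: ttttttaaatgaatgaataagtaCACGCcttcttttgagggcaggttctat
This core is in 1 or more windows of 40.6% of the 27305 gene symbols. It is in 24 of the 45 tested genes with a promoter in the table, and in 4 of the 9 of these that passed.

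UGT3A2, a UGT that uses other sugars than glucuronic acid, had 48, 22 and 35 reads across the sh-NC libraries, against 9, 4 and 1 reads in the sh-KLF5 libraries. The groups did not overlap, and the level was 34.5 ± 11.7 normalized counts in sh-NC, against 4.69 ± 4.14 in sh-KLF5 (SD, n = 3). The ratio of summed reads was 7.41-fold lower with a 95% counting interval from 4.23-fold to 14.0-fold, and the fitted log2 fold change was -2.88 ± 0.56 SE (adjusted p = 0.00229, limma). The call was kept without any single library, with values from -3.44 to -2.27. Under limma's test for a log2 fold change beyond 1 it was lost (adjusted p = 0.105). The gene lies at chr5:36035017-36071358 on the minus strand (GRCh38). Its promoter (RefSeq, GRCh38.p14, chr5:36066833-36067132, minus strand) is shown beside that of ALDH7A1 because both genes fell furthest, and it holds none of the 3 motifs.
UGT3A2 promoter: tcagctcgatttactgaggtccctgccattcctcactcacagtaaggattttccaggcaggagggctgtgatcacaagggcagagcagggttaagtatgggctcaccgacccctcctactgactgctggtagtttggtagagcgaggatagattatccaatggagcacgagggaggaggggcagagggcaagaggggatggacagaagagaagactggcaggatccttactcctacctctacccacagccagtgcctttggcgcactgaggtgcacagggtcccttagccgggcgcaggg
The other untested UGT genes UGT2B7, UGT1A3, UGT1A4, UGT1A5 and UGT8 never exceeded 4 reads in a library.

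None of the 8 tested GST genes passed with limma or edgeR at an adjusted p under 0.05, where 12.9% of all tested genes passed with limma. Before adjustment 3 had a p under 0.05 (GSTK1, GSTM3 and GSTT2B), and with DESeq2 GSTK1 passed. GSTP1 had 4625, 4752 and 5994 normalized counts in sh-NC, against 4119.7, 5232 and 5662 in sh-KLF5. The groups overlapped, and its 95% interval ran from -0.33 to 0.26 (log2 fold change -0.04, adjusted p = 0.904, limma). GSTO1, an omega-class thiol transferase, stood at 32.6 RPKM in sh-NC, against 34.8 in sh-KLF5. GSTK1, the mitochondrial and peroxisomal kappa-class enzyme, had 949, 1054 and 1107 normalized counts in sh-NC, against 784, 872 and 794 in sh-KLF5. All its sh-KLF5 libraries were lower, and the adjusted p was 0.068 with limma, 0.0494 with DESeq2 and 0.044 without sh-KLF5 replicate 1 (log2 fold change -0.34). GSTM3, a mu-class enzyme, had 360.3, 354 and 412 normalized counts in sh-NC, against 604, 419 and 496 in sh-KLF5. All its sh-KLF5 libraries were higher (log2 fold change 0.42, adjusted p = 0.0784, limma, and 0.0388 without sh-KLF5 replicate 2). GSTZ1, an enzyme of tyrosine breakdown, had a log2 fold change of 0.14, and GSTT2B, GSTM4 and GSTO2 had -1.01, -0.75 and -0.22 without passing (adjusted p-values 0.124, 0.251 and 0.366, limma), although without sh-KLF5 replicate 1 the adjusted p of GSTT2B was 0.0207 (log2 fold change -1.37). GSTT2B then had 22 and 10 reads in sh-KLF5, against 60, 28 and 38 in sh-NC. It entered that test only through sh-NC, so this value is not separate support.

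Of the 8 redox genes, 2 passed and both were higher (25% passing, against 12.9% of all tested genes). HMOX1, the inducible heme oxygenase, had 1038, 1063 and 1469 normalized counts in sh-NC, against 1380.0, 2082 and 2839.5 in sh-KLF5. The groups overlapped at one point, since sh-KLF5 replicate 1 lay below sh-NC replicate 3. The mean was 177% of control (log2 fold change 0.78 ± 0.23 SE, adjusted p = 0.0428, limma), and the adjusted p was 0.145 and 0.121 without sh-NC replicate 1 and 2 and 0.096 and 0.0662 without sh-KLF5 replicate 2 and 3. GCLM had 1900.3, 1936 and 1966 normalized counts in sh-NC, against 2902, 2283 and 2609.9 in sh-KLF5. Its groups did not overlap (134% of control, log2 fold change 0.42 ± 0.12 SE, adjusted p = 0.0262, limma), but the adjusted p was 0.12, 0.116 and 0.081 without sh-NC replicate 1, 2 and 3 and 0.0552 without sh-KLF5 replicate 3. GCLC, the catalytic partner of GCLM, had 877, 839 and 844 normalized counts in sh-NC, against 841, 859 and 1027 in sh-KLF5. These overlapped, with a 95% interval of the log2 fold change from -0.17 to 0.34 (adjusted p = 0.701, limma).

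NQO1, the quinone reductase often used as a readout of NRF2, had 11666, 11869 and 13584 normalized counts in sh-NC, against 15067, 14825 and 13236 in sh-KLF5. The groups overlapped, and the log2 fold change was 0.22 with a 95% interval from -0.03 to 0.46 (adjusted p = 0.256, limma). On the opposite strand AC092115.2 overlaps 17.7% of the NQO1 exonic bases. TXNRD1, which reduces thioredoxin, had 9023, 9284 and 10548 normalized counts in sh-NC, against 10382, 10194 and 13780.5 in sh-KLF5 (log2 fold change 0.24, adjusted p = 0.272, limma). GPX4, which reduces lipid peroxides and protects from ferroptosis, had 1896, 1805 and 2426 normalized counts in sh-NC, against 2554, 2373 and 2328 in sh-KLF5 (log2 fold change 0.26, adjusted p = 0.217, limma). In both genes the groups overlapped. SRXN1, which repairs oxidised peroxiredoxins, had a log2 fold change of -0.36 (adjusted p = 0.504, limma), and 85% of its exonic bases are shared with AL121758.1 on the same strand. GPX2, an intestinal-type glutathione peroxidase, had 13, 16 and 12 reads in sh-NC, against 7, 12 and 6 in sh-KLF5 (log2 fold change -0.69, adjusted p = 0.378, limma).

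The antioxidant response element core TGACNNNGC was found in the promoter windows of 13 of the 74 genes with a promoter in the table (17.6%), against 16.1% of 27305 gene symbols with 1 or more windows. It was in 8 of the 45 tested genes with a promoter, and of the 9 of these that passed GCLM alone held it. The stretches around the core in GCLM, GPX2, GSTP1 and TXNRD1 are shown because these are textbook targets of NRF2, only one of which passed (RefSeq, GRCh38.p14, GCLM at chr1:93909435-93909485 and GPX2 at chr14:64942838-64942888 on the minus strand, GSTP1 at chr11:67583725-67583775 and TXNRD1 at chr12:104215659-104215709 on the plus strand). Capitals mark the core, which begins 34, 122, 66 and 99 bases before the start and is read on the opposite strand in GCLM and GPX2. TXNRD1 holds further matches that are not shown, 8 bases before the same start and 102 bases before another start.
GCLM window: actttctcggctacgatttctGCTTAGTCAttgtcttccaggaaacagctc
GPX2 window: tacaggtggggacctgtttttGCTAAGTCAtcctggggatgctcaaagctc
GSTP1 window: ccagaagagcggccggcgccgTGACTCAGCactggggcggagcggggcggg
TXNRD1 window: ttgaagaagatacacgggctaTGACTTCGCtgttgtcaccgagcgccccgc
That gene was GCLM. CCNCNCCC was found in 53 of the 74 genes (71.6%), against 58.9% of all symbols. It was in 34 of the 45 tested genes with a promoter and in 5 of the 9 of these that passed. HMOX1 and CYP24A1 are among the 17 genes with no promoter in the table.

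The regulators of these enzymes and their partner genes were followed in 6 further lists, in which 75 genes were tested, 11 were higher, 1 was lower and 63 did not pass. That is 16% of the 75 genes passing in either direction, against 12.9% of all tested genes (6.04% higher and 6.85% lower), and their median log2 fold change was 0.11. Among 9 regulators of NRF2, 1 passed (11.1%, against 12.9% of all tested genes). This was SQSTM1, the autophagy receptor p62 that binds KEAP1, with 4703, 4392 and 5682 normalized counts in sh-NC, against 9436, 9243 and 9269 in sh-KLF5. The groups did not overlap (log2 fold change 0.93 ± 0.12 SE, adjusted p = 5.91e-05, limma). NFE2L2 and KEAP1 had log2 fold changes of -0.13 and -0.02 (adjusted p-values 0.579 and 0.956, limma).

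Among 7 tested genes of the AHR and nuclear receptor list, 2 were higher (28.6% passing, against 12.9% of all tested genes). ARNT2, a dimer partner of the AHR family of factors, had 208, 171 and 162 normalized counts in sh-NC, against 478, 699.6 and 428 in sh-KLF5. TIPARP, an AHR target that in turn limits AHR, had 1041, 1148 and 1226 and then 2486, 2059 and 2065. Neither gene overlapped between groups (log2 fold changes 1.54 and 0.95, adjusted p-values 2.06e-05 and 4.96e-05, limma). AHR itself had a log2 fold change of 0.32 and its repressor AHRR 0.16 (adjusted p-values 0.158 and 0.442, limma). None of the 8 tested genes that pass electrons to P450 enzymes was past an adjusted p of 0.05 with limma or edgeR, while DESeq2 passed 1, and 1 had an unadjusted p under 0.05 in limma. Over all tested genes 12.9% passed with limma. The reductase POR had a log2 fold change of 0.11 (adjusted p = 0.571, limma).

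Among 15 tested redox and NADPH genes linked to NRF2, 3 were higher and 1 was lower (26.7% passing, against 12.9% of all tested genes). The ferritin subunits, which store iron, were higher in every sh-KLF5 library. FTL had 58146, 53538 and 68143 normalized counts in sh-NC, against 102860.0, 105141 and 107807 in sh-KLF5, and FTH1 36756, 35142 and 41658 and then 59769.7, 77664 and 73134 (log2 fold changes 0.82 and 0.89, adjusted p-values 0.000194 and 0.000161, limma). SLC7A11, the cystine importer, had a log2 fold change of 0.60 (adjusted p = 0.0149, limma). GSR, which regenerates reduced glutathione, had 829.6, 837 and 952 normalized counts in sh-NC, against 621, 666 and 706 in sh-KLF5. It was the gene that fell (log2 fold change -0.39, adjusted p = 0.0401, limma).

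Of 19 further phase I and II enzymes, 1 was higher (5.26% passing, against 12.9% of all tested genes). This was MGST1, a membrane-bound glutathione transferase, with 3433, 3161 and 3401 normalized counts in sh-NC, against 5702, 4237 and 4200.1 in sh-KLF5. Every sh-KLF5 library was above every sh-NC library (log2 fold change 0.49, adjusted p = 0.0198, limma). Of 17 further antioxidant enzymes, 4 were higher (23.5% passing, against 12.9% of all tested genes). These were GPX1, GPX7, PRDX3 and GLRX, with log2 fold changes of 0.46, 0.62, 0.55 and 0.53 (adjusted p-values 0.0387, 0.0291, 0.0338 and 0.0345, limma). The calls of SQSTM1, ARNT2, TIPARP, FTL and FTH1 were kept without any single library. Those of GSR, SLC7A11, MGST1, GPX1, GPX7, PRDX3 and GLRX were each lost without sh-NC replicate 1, with adjusted p-values of 0.101, 0.0792, 0.0632, 0.166, 0.0915, 0.0825 and 0.0979 in that order, and without several other libraries.

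**Figure D4:**
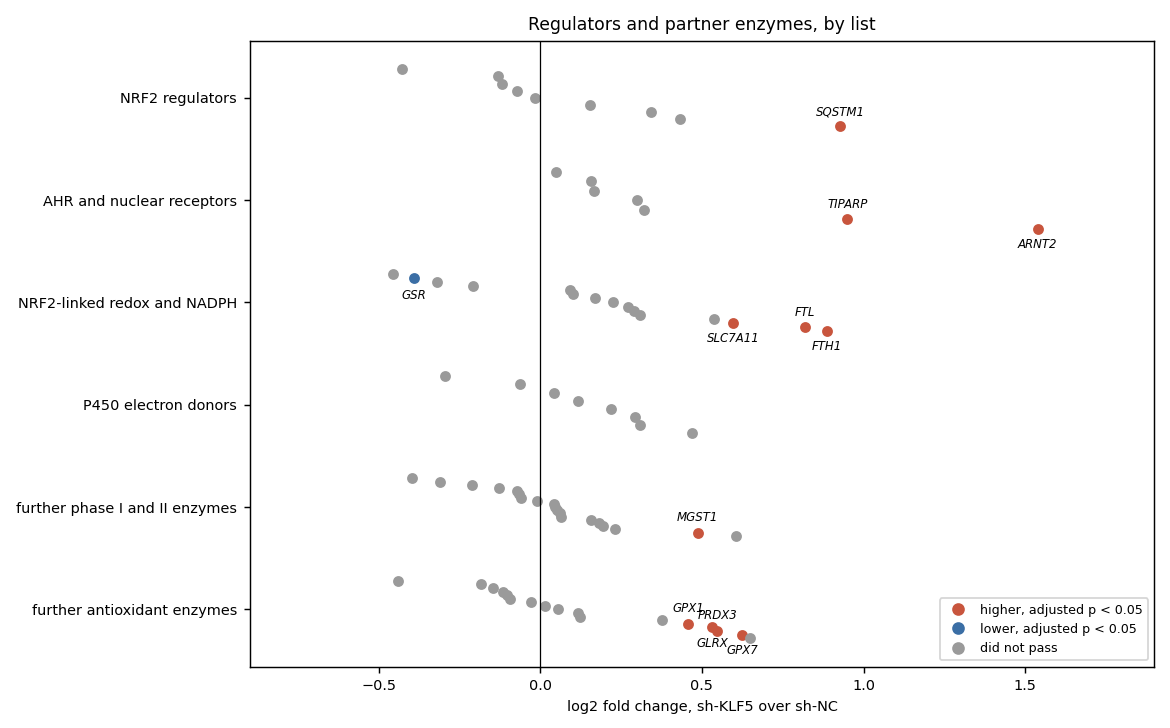
Log2 fold change, sh-KLF5 over sh-NC, of the 75 tested genes in the 6 lists of regulators and partner enzymes, one point per gene, coloured where the adjusted p is under 0.05; the height within a row only separates the points. ARNT2 lies furthest to the right at 1.54, GSR is the only coloured point below 0, and no P450 electron donor is coloured.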

How the data were processed

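The 6 RNA-seq libraries, 3 from sh-KLF5 and 3 from sh-NC cells of the SKOV3 line, were grouped by their labels. The authors deposited 1 table of a normalized signal per gene and library, the reads counted on a gene divided by a size factor. The same deposited table holds the authors' own fold changes and p-values, which were not used. The submitters' processing notes name HISAT2 2.0.5, featureCounts 1.5.0-p3, DESeq2 1.20.0 and the build hg38.

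Whole reads were regained by scaling each column to the value of 1 read, and 100% of values came out whole within 1e-06. Groups were compared on log2(normalized count + 1) by limma (version 3.58.1, R 4.3.3), whose empirical Bayes step used the trend and robust options, after edgeR's filterByExpr at a minimum count of 10, which left 15803 of 29185 genes, with Benjamini-Hochberg adjustment over all of them. Fold changes on this scale understate the change of genes with few reads. edgeR 4.0.16 and DESeq2 1.42.0 on the recovered reads, other scalings, filters and pseudocounts, a replicate block and leaving out each library were alternatives. Counting intervals (95%, exact conditional) cover counting error only. Gene coordinates are those of GENCODE release 29 (GRCh38), which matched 100% of the genes, and promoters come from RefSeq (GRCh38.p14), which held 74 of the 91 genes.

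Replicates of a group differed by more than sampling noise (chi-square per degree of freedom 4.66 to 34.3), so none was counted as a repeat. The genes named are those with an adjusted p under 0.05, the 8 redox genes, the 5 most abundant genes of each family, list genes that passed, and some others chosen after their values were seen. The genes and lists were chosen with earlier results of these data known. Of the genes written into the lists, 2 were left out and are not reported here. The scripts were tested on simulated counts.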

Additional observations from a re-analysis of the deposited data

How the results depend on the processing

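The counts of detoxification genes depended on the filter and the libraries. The 3 lower genes became 1 under limma's treat, which tests for a log2 fold change beyond 1, 6 with no filter on low counts and 1 under a stricter filter of 10 reads in each library, and ranged from 2 to 8 when a library was left out. The 8 higher genes became 1 with treat and ranged from 4 to 8 when a library was left out, with 4 without sh-NC replicate 2 and 5 without sh-NC replicate 3. Of the 2 genes called lower, treat left 1, no filter gave 5 and the stricter filter left 0, and leaving out a library gave from 2 to 5, with 8 lower and 5 called lower without sh-KLF5 replicate 1. Of the 2 called higher, treat and the stricter filter each left 1, and leaving out a library gave from 2 to 3. The stricter filter removed ALDH7A1, CYP24A1 and UGT3A2 from the test by its construction. edgeR passed 12 genes and DESeq2 13, and 11 of each were the genes that passed here. The number passing among all tested genes moved as well. It was 2038 of 15803 here, 292 of 15803 with treat, 2572 of 29185 with no filter and 1634 of 13951 under the stricter filter. It was 1217 of 16247 without sh-NC replicate 2, 1386 of 16402 without sh-NC replicate 3 and 2786 of 16373 without sh-KLF5 replicate 1. KLF5 stayed lower under all 17 settings, from -1.62 to -1.48 without one library.

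The replicate numbers were not taken as pairs, since same-numbered libraries correlated at 0.059, 0.0331 and 0.0504 after removing group means. In a fit with a replicate block, 2675 of all 15803 tested genes passed, against 2038 in the main fit. Of the detoxification genes 17 passed, 6 of them lower and 11 higher, and the 11 that passed here were among them. The other 6 were CYP11A1, CYP27C1, GSTK1, GSTM3, GSTT2B and UGT1A1, with adjusted p-values of 0.0249, 0.0323, 0.0487, 0.038, 0.0495 and 0.0498 under the block.

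Over the 56 tested detoxification genes and the 12 list genes that passed, the 741 values under settings that kept all libraries held their direction in every case, with 26 losing and 9 gaining the call. Of 408 values of these 68 genes with a library left out, 47 lost the call, 6 gained it and 23 turned sign, the last in genes that had not passed. Further genes were tested and passed only under no filter or with a library left out (CYP19A1, GSTA4, GSTM1 and GSTM2). Those log2 fold changes ranged from -0.212 to 0.121 for AKR1B1, -0.164 to 0.119 for AKR1C3, -0.0932 to 0.0989 for AKR7A2, -0.0312 to 0.149 for AKR1A1, -0.0537 to 0.14 for AKR1E2, -0.0153 to 0.113 for ALDH9A1, -0.0971 to 0.125 for ALDH3B1, -0.0263 to 0.283 for ALDH2, -0.114 to 0.0519 for ALDH4A1, -0.376 to 0.159 for CYP1A1, -0.291 to 0.371 for CYP2S1, -0.132 to 0.0971 for GSTP1, -0.00453 to 0.157 for GSTO1 and -0.00531 to 0.139 for GCLC. Another scaling moved the median of all genes by less than 0.01 (log2). The causes were not tested, and with 3 libraries a group and few reads on many of these genes, depth limits ALDH7A1, UGT3A2, CYP24A1 and all untested genes.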

Other observations

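Some glutathione transferase genes had too few reads for the test but uneven reads between groups, and were chosen after their values were seen. GSTM2, a mu-class enzyme, had 22, 10 and 10 reads across the sh-NC libraries, against 3, 1 and 0 in the sh-KLF5 libraries. GSTA4, which conjugates the lipid peroxidation product 4-hydroxynonenal, had 35, 9 and 21 reads in sh-NC, against 3, 7 and 2 in sh-KLF5. In both genes every sh-KLF5 library was below every sh-NC library. The summed reads were 10.4-fold lower for GSTM2 (95% counting interval 3.76-fold to 39.8-fold) and 5.35-fold lower for GSTA4 (2.87-fold to 10.9-fold).

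GSTM1, a mu-class enzyme whose gene is often deleted in people, had 17, 1 and 11 reads in sh-NC, against 1, 0 and 1 in sh-KLF5, so sh-NC replicate 2 was level with the sh-KLF5 libraries. GSTM1 shares 22.3% of its exonic bases with GSTM2, and the coding sequences of GSTM1 and GSTM4 are 84.8% identical, so reads may be split between these genes. With no filter on low counts, limma's adjusted p was 0.000672 for GSTM2, 0.00229 for GSTA4 and 0.0351 for GSTM1.

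CYP19A1, the aromatase that makes oestrogens, had 5, 4 and 0 reads in sh-NC, against 11, 14 and 7 in sh-KLF5, and its groups did not overlap. Its summed reads were 3.60-fold higher (95% counting interval 1.68-fold to 8.57-fold), with an adjusted p of 0.0404 with no filter on low counts (limma). AKR1B10, a reductase of retinal and lipid aldehydes, had 5, 4 and 2 reads in sh-NC, against 7, 12 and 4 in sh-KLF5, and ALDH1L1, a folate enzyme, had 5, 9 and 15 reads and then 1, 22 and 5. The groups of both genes overlapped.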
